A study of Mus musculus with 6 samples.

Results

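The tumour necrosis factor (TNF) receptor superfamily was described in group 1 innate lymphoid cells (ILC1) of the mouse liver through 9 of its genes: Tnfrsf18, Tnfrsf9, Cd27, Tnfrsf1b, Tnfrsf4, Tnfrsf1a, Fas, Ltbr and Tnfrsf14. The members were the rows of the deposited count table with these symbols, 9 of 24091 gene symbols in all. All 9 passed the filter on low counts, which left 12469 genes for testing. The rule uses their symbols, not their measured values.

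Bulk mRNA was sequenced from ILC1 of 3 healthy and 3 leukaemic C57BL/6 mouse livers. The AML libraries came from mice injected into a vein with 1000000 C1498 cells, a transplantable acute myeloid leukaemia line of that strain, with the ILC1 taken at day 14. The healthy libraries came from mice of the same strain without C1498 cells, listed under the same day 14, and both groups carried no engineered allele that the labels name. The labels give neither the gate used to isolate ILC1, nor the sex of the animals, nor whether a library was 1 animal or a pool. The p-values below therefore rest on the variation among these 6 libraries, some of which may be technical. C1498 is a single cell line.

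TNF receptors are surface proteins bound by trimeric ligands of the TNF superfamily, many of them on the surface of neighbouring cells. Most recruit TRAF adaptors and activate NF-kB, which promotes survival and cytokine production, whereas receptors with a death domain can also start apoptosis or necroptosis. ILC1 are tissue-resident lymphocytes that make TNF, interferon gamma and the death ligand TRAIL. In lymphocytes of this kind, the costimulatory members of the family adjust survival and cytokine output.

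Total counts ran from 48999439 to 51114701 in the healthy and from 45135093 to 51284691 in the AML libraries. A count of 3, the limit that 0 reads allow, equals 0.0574 to 0.0642 CPM (read counts scaled to library size), for counting error only. Of 11 ILC1 markers, 10 were matched and all were read, with summed levels of 10411 to 10760.3 CPM in healthy and 10029 to 10900.5 CPM in AML libraries. Of these, Il2rb, Klrb1c, Ncr1 and Tbx21, which NK cells express too, made up 8415 to 8904 and 8274 to 9023 CPM. The other 6 markers, with Cxcr6, Itga1 and Cd200r1 among them, summed to 1857 to 1996 and 1755 to 1877 CPM. Of these 6, Cxcr6 measured 889, 1033 and 854 CPM in healthy and 797, 766 and 667 CPM in AML libraries. Its log2 fold change (AML minus healthy) was -0.32 (edgeR adjusted p 0.478), beside 0.14 for Itga1 and 0.23 for Cd200r1. Summed levels of 8 conventional NK markers were 155 to 195 and 156 to 217 CPM. Lists of other cells were also read, and myeloid genes set healthy 1 apart from the other healthy libraries. Summed levels of 7 monocyte markers were 794, 261 and 244 CPM in healthy 1 to 3 and 947, 978 and 862 CPM in AML 1 to 3. Without Lyz2, the largest of them, the other 6 summed to 336, 226 and 211 and then 444, 412 and 428 CPM. Without Cd74, 9 dendritic cell markers summed to 107 to 150 CPM in healthy and 233 to 306 CPM in AML libraries. Summed levels of all 10 dendritic cell markers were 159 to 255 CPM in healthy and 427 to 665 CPM in AML libraries. Those of 6 B cell markers (Pax5 at 0) were 5.36 to 7.54 and 5.70 to 6.60 CPM, of 6 hepatocyte markers 0.790 to 4.22 and 0.813 to 1.36 CPM, of 5 endothelial markers (Lyve1 at 0) 0.187 to 0.466 and 0.278 to 0.747 CPM, and of 6 progenitor markers 7.22 to 26.4 and 18.95 to 29.7 CPM. A sixth endothelial marker, Pecam1, which leukocytes share, was read at 90.9 to 125 and 96.1 to 116 CPM. AML 1 stood apart from AML 2 and 3 in NF-kB feedback genes, described below, and in its counts over all genes. Their chi-square per degree of freedom was 86.7 and 102 between AML 1 and AML 2 and 3, but 59.7 to 72.3 between AML 1 and the healthy libraries and 28.0 between AML 2 and 3, so results are also given without these libraries. In bulk samples, fewer cells of a type and less RNA per cell cannot be told apart.

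The members lie on 3 chromosomes of the mm10 assembly, with 5 on chromosome 4, 3 on chromosome 6 and 1 on chromosome 19. On chromosome 4 these are Tnfrsf1b (chr4:145212368-145246870, minus strand), Tnfrsf9 (chr4:150920155-150946102, plus), Tnfrsf14 (chr4:154922089-154928077, minus), Tnfrsf4 (chr4:156013695-156016589, plus) and Tnfrsf18 (chr4:156026342-156028891, plus). Tnfrsf4 and Tnfrsf18 are immediate neighbours, 9753 bases apart, with no protein-coding gene between them in GENCODE. On chromosome 6 Cd27 (chr6:125232622-125237027, minus), Ltbr (chr6:125306571-125313870, minus) and Tnfrsf1a (chr6:125349723-125362483, plus) follow each other, with Tuba3a and then Scnn1a in the gaps. Fas lies on chromosome 19 (chr19:34290659-34327770, plus).

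All 9 members matched a start site in the RefSeq promoter table of GRCm38.p6, the mm10 assembly, which gives 250 bases before to 50 after each of 10 starts, as Tnfrsf9 has 2. A set of 4 short motifs were searched on both strands because the factors that bind them act in this pathway or in ILC1: NF-kB (GGGNNTTNCC), STAT (TTCNNNGAA, which reads alike on both strands), T-box (TCACACC) and AP-1 (TGANTCA). The STAT letters were found in 5 of 9 members and 5 of 10 windows, against 8.3% of 32851 windows of the same length. The matches are shown with 6 bases on each side, 5′ to 3′ on the strand of the gene, the match in capitals, because they were the commonest shared feature that the choice of members did not use.
Tnfrsf18: ctacacTTCACAGAAggcctt
Tnfrsf9: agctgaTTCCAAGAAaccctt
Tnfrsf1b: cattcaTTCCCGGAAgagatg
Tnfrsf1a: gcttccTTCCGTGAAattgac
Fas: agcgatTTCTGGGAAgacctg
Relative to the start site these matches begin at position -99 in Tnfrsf18 (chr4:156026223-156026231), -136 at the second start of Tnfrsf9 (chr4:150927863-150927871), -181 in Tnfrsf1b (chr4:145247043-145247051), -244 in Tnfrsf1a (chr6:125349479-125349487) and -93 in Fas (chr19:34290566-34290574). Of the 5 members with the highest mRNA levels, given next, 4 hold the letters, and of the 4 with the lowest levels 1 does. How often other genes of such levels hold them was not tested. In GENCODE Tnfrsf18 begins at chr4:156026164 and Tnfrsf1a at chr6:125349362, so their matches lie inside the annotated genes. The second start of Tnfrsf9 also lies inside its gene, and its window holds 81 exonic bases. The matches of Tnfrsf1b and Fas lie upstream of their GENCODE genes.

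NF-kB letters were found in 1 member, against 4.79% of all windows. They lie at the second start of Tnfrsf9, as a pair of matches that overlap by all but their end bases, the first at chr4:150927956-150927965 and shown in capitals.
Tnfrsf9: gcagctGGGGATTTCCcaggag
AP-1 letters were found in 2 members, Tnfrsf9 and Fas, against 7.81% of windows, and T-box letters in 0 members, against 3.98%. A match is a run of letters, not a measured binding site, and a missing match says only that the letters are not in that window.

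The 250 bases upstream of Fas and of Ltbr are printed because Fas was the member whose groups did not overlap and Ltbr the member that varied most between libraries. Fas holds an AP-1 and a STAT match, in capitals in that order, in chr19:34290409-34290658 on the plus strand. Ltbr holds none of the 4 motifs, in chr6:125313886-125314135 on the minus strand.
Fas: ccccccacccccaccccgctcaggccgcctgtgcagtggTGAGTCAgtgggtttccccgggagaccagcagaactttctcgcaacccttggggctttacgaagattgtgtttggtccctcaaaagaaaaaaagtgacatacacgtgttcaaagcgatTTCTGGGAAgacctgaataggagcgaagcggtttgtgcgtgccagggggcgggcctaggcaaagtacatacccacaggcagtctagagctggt
Ltbr: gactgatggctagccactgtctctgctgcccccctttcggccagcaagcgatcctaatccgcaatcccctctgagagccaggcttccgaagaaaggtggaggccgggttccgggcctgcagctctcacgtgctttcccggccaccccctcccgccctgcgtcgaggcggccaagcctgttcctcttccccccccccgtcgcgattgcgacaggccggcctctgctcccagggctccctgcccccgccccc
The Ltbr window is the richest of the members in G and C, with 70% and 23 CpG dinucleotides in 300 bases. Fas has 59% and 14, Tnfrsf18 55.3% and 4, and Tnfrsf4 43.7% and 6, beside medians of 52.7% and 7 over all windows.

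The 9 receptors formed an abundant and a scarce set with a wide gap between them. Levels of different genes were compared as CPM per kilobase of the deposited gene length, averaged over all 6 libraries. Tnfrsf18, which encodes the costimulatory receptor GITR, was highest at 265 ± 9.41 CPM per kilobase (SD, n = 6), the 98.5th percentile of the genes tested. Tnfrsf9, encoding the costimulatory receptor 4-1BB, followed at 137 ± 21.7. Cd27 at 75.8 ± 6.26, Tnfrsf1b at 73.6 ± 10.6 and Tnfrsf1a at 72.7 ± 7.09 were next and lay at the 92.1st to 92.5th percentile. Their ranges overlapped, and the order of these 3 genes changed from library to library. Per kilobase, Tnfrsf18 ranked first and Tnfrsf9 second in each of the 6 libraries, and the range of each was clear of the next gene. By mean CPM, Tnfrsf1b at 361 and Tnfrsf9 at 303 lay above Tnfrsf18 at 284. The deposited length of Tnfrsf18 was 1.074 kilobases, against 1524 exonic bases in GENCODE. Levels, shares and ratios per kilobase thus depend on the deposited lengths.

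The scarce set began with Fas at 6.47 ± 0.997 CPM per kilobase, the 45.4th percentile. Tnfrsf1a, the next gene above it, exceeded Fas by 10.3 to 15.2 times within a library. Ltbr followed at 3.04 ± 1.22, Tnfrsf14 at 1.71 ± 0.447 and Tnfrsf4 at 1.40 ± 0.347. Fas was above Ltbr and Ltbr above Tnfrsf14 in 6 of 6 libraries, although the ranges of these neighbours overlapped across libraries. Tnfrsf14 was above Tnfrsf4 in 4 of 6 libraries, so this last pair did not differ beyond its spread. The 4 scarce genes together made up 1.69% to 2.53% of the summed level of the 9, and Tnfrsf18 alone 39.9% to 43.6%.

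**Figure D1:**
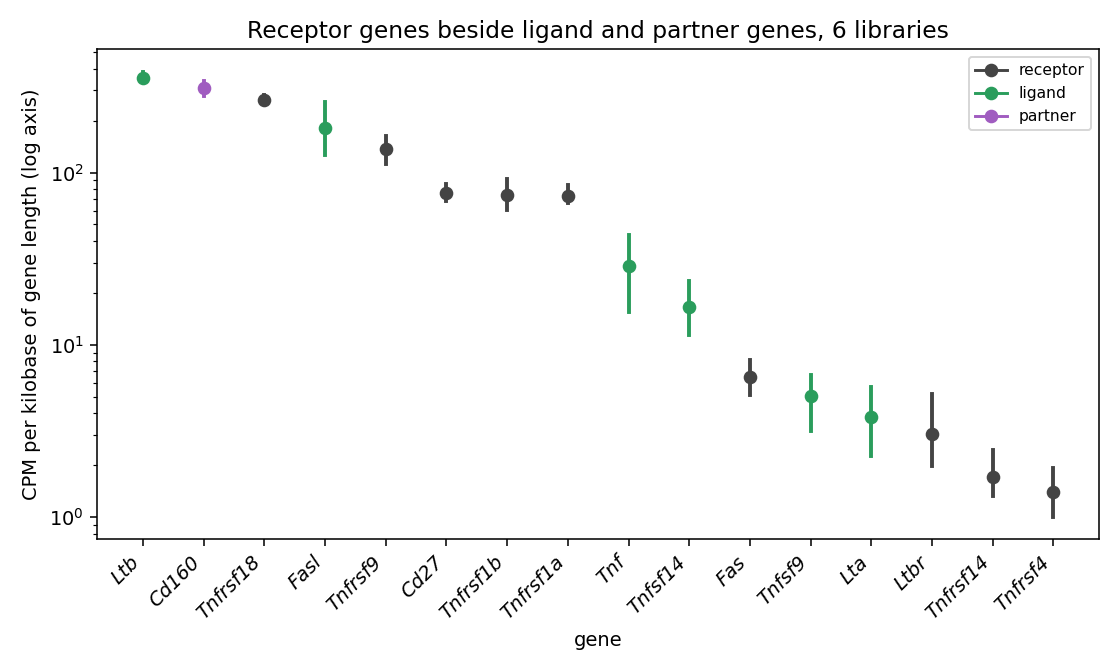
Levels per gene in CPM per kilobase of gene length (log axis), as the mean (point) and the range (line) of 6 libraries, for the 9 receptors, their ligands read at 1 CPM or more on average, and Cd160. Tnfrsf18 at 265 stands above the other receptors, and a gap separates Tnfrsf1a at 72.7 from Fas at 6.47.

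The neighbours Tnfrsf18 and Tnfrsf4 stood at opposite ends of this order. The per-kilobase level of Tnfrsf18 exceeded that of Tnfrsf4 by 200.4 ± 53.7 times in healthy and 199 ± 59.6 times in AML libraries (SD, n = 3 each), with a range over libraries of 132 to 261. The 3 neighbours on chromosome 6 were also unequal, since Tnfrsf1a exceeded Ltbr by 16.4 to 33.9 times and Cd27 exceeded Ltbr by 14.9 to 41.7 times. Transcripts of TNFR1 (Tnfrsf1a) and TNFR2 (Tnfrsf1b) were near equal per kilobase of deposited length, with a TNFR2 to TNFR1 ratio of 0.859 to 1.10 over the 6 libraries. The deposited lengths were 4.903 kilobases for Tnfrsf1b and 2.145 for Tnfrsf1a, against 3818 and 2591 exonic bases in GENCODE. The near equality depends on these lengths. By mean CPM Tnfrsf1b was higher, at 361 against 156.

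Leukaemia-bearing and healthy mice were then compared for each member. No receptor passed the test. The intervals were narrow around 0 for the abundant Tnfrsf18, Cd27 and Tnfrsf1a and wide for the scarce Ltbr, Tnfrsf14 and Tnfrsf4. Those of the abundant Tnfrsf9 and Tnfrsf1b and the scarce Fas were of intermediate width. In the edgeR quasi-likelihood test 0 of 9 members had an adjusted p below 0.05, as did 0 of 12469 genes (0%), where the smallest adjusted p was 0.0764. At an unadjusted p below 0.05 the counts were 0 of 9 members and 8.84% of all genes, and the smallest p of a member was 0.114. The groups did not overlap for 1 member (11.1%), against 15.5% of all genes. DESeq2 called 0 members and 1.15% of genes at an adjusted p below 0.05. The log2 fold change (AML minus healthy) was positive for 7 members and negative for 2, with a median of 0.10, beside 0.01 over all genes. Without AML 1 the members were 5 positive and 4 negative with a median of 0.0342. With Lyz2 as a covariate they were 6 and 3 with a median of 0.0238, which was also the median of all genes in that fit. The Lyz2 fit rests largely on healthy 1, the only healthy library with a Lyz2 level near that of the AML libraries.

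**Figure D2:**
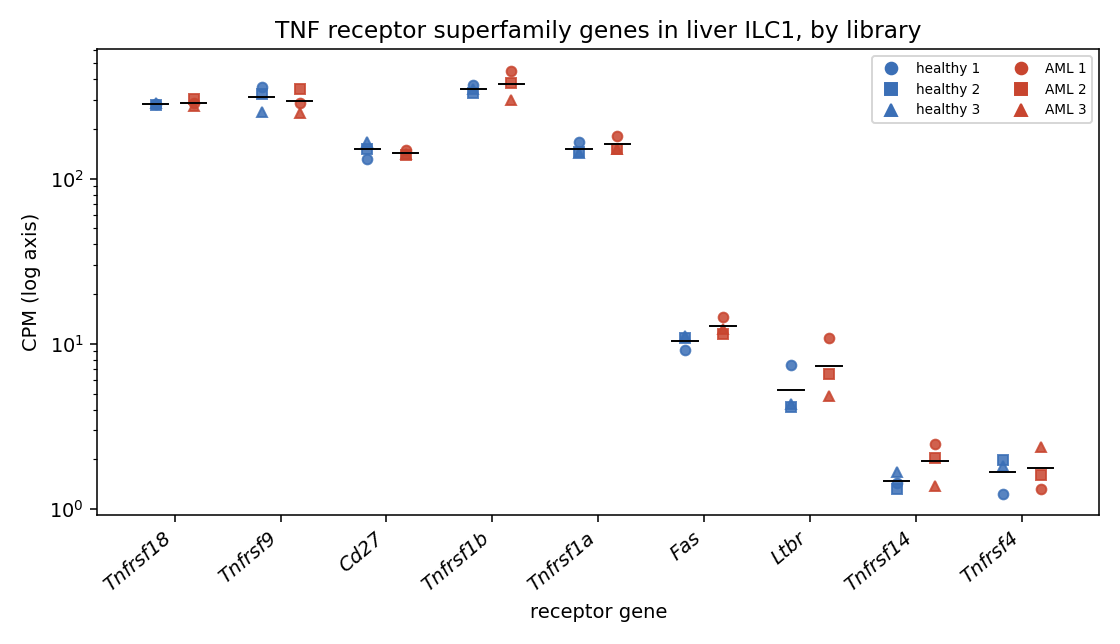
CPM of each receptor (log axis) in healthy 1 to 3 (blue) and AML 1 to 3 (red), with a bar at the group mean and members ordered by level per kilobase. Healthy and AML points overlap for 8 of the 9 receptors, and for Fas the lowest AML value, 11.5, lies just above the highest healthy value, 11.2.

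Among the costimulatory receptors, Tnfrsf18 was the steadiest of all members. It was read at 281, 278 and 285 CPM in healthy 1 to 3 and at 285, 303 and 274 CPM in AML 1 to 3. The AML libraries thus lay on both sides of the healthy ones. The means were 281 ± 3.20 and 287 ± 14.8 CPM (SD, n = 3), and the log2 fold change was 0.03 with a 95% interval of -0.13 to 0.19, which leaves room for 0.914 to 1.14 times the healthy level. The edgeR adjusted p was 0.899. In GENCODE 27.2% of the exonic bases of Tnfrsf18 are shared with the antisense gene Gm16008, and as the libraries carry no strand information the reads of this pair cannot be told apart.

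Tnfrsf9 encodes 4-1BB, which activated NK and T cells display and which binds the ligand encoded by Tnfsf9. Its levels were 360.2, 324 and 252 CPM in healthy and 285, 347 and 249.4 CPM in AML libraries. Both groups spanned almost the same range, with library 3 the lowest of each. Its log2 fold change was -0.09 (interval -0.46 to 0.29, edgeR adjusted p 0.871), and it was 0.02 without healthy 1 or without AML 3.

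Cd27 encodes the receptor for CD70 and marks stages of NK cell maturation in mice. It was read at 132, 152 and 166 CPM in healthy and at 149, 139 and 141 CPM in AML libraries, all AML values falling inside the healthy range. Its log2 fold change was -0.07 (interval -0.29 to 0.15, edgeR adjusted p 0.823). The count table also places Cd27 within the interval of Vamp1 on the other strand, which held 1103 to 1854 reads, although no exons of the pair overlap in GENCODE.

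Tnfrsf1b encodes TNFR2, the TNF receptor without a death domain, which responds best to membrane-bound TNF. It measured 365.5, 330.1 and 346 CPM in healthy libraries and 449, 378 and 297 CPM in AML libraries. AML 1 was the highest and AML 3 the lowest of the 6, so the AML spread enclosed the healthy one, with means of 347 ± 17.7 and 375 ± 76.4 CPM. The log2 fold change of 0.11 (interval -0.22 to 0.44, edgeR adjusted p 0.807) became -0.04 without AML 1.

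Tnfrsf4 encodes OX40, a costimulatory receptor best known from activated CD4 T cells. Its reads numbered only 61, 99 and 88 in healthy and 62, 84 and 113 in AML libraries, or 1.24 to 1.99 and 1.33 to 2.38 CPM. The groups overlapped over most of their range. A log2 fold change anywhere from -0.81 to 0.95 was compatible with the data around the estimate of 0.07. A change of that size was thus not detectable (edgeR adjusted p 0.962).

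Tnfrsf1a and Fas encode the members with a death domain. Tnfrsf1a, encoding TNFR1, the main receptor for soluble TNF, was read at 166, 144 and 142 CPM in healthy and at 182, 150.2 and 151 CPM in AML libraries. Library 1 was the highest of both groups. The log2 fold change was 0.10 (interval -0.14 to 0.34, edgeR adjusted p 0.774), and it was -0.000145 without AML 1.

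Fas, which triggers apoptosis on binding Fas ligand, was the only member with separate groups. It measured 9.14, 10.8 and 11.2 CPM in healthy and 14.5, 11.5 and 12.3 CPM in AML libraries. All AML values lay above all healthy ones, with AML 2 closest to healthy 3, and 15.5% of all genes had groups that did not overlap. The means were 10.4 ± 1.10 and 12.8 ± 1.57 CPM, and the log2 fold change of 0.30 ± 0.17 (SE) had an interval of -0.09 to 0.69, from 0.939 to 1.61 times the healthy level. The edgeR adjusted p was 0.620. The estimate was positive under each of 17 alternative settings, from 0.11 without healthy 1 and AML 1 to 0.50 with Lyz2 as a covariate, and passed under none.

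The receptors of the lymphotoxin and LIGHT group were scarce and variable. Ltbr encodes the lymphotoxin beta receptor, best known from stromal and myeloid cells, which receive lymphotoxin from lymphocytes. It was read at 7.40, 4.12 and 4.30 CPM in healthy and at 10.8, 6.53 and 4.86 CPM in AML libraries. Healthy 1 lay above AML 2 and AML 3, so the groups overlapped. The log2 fold change was 0.49 ± 0.37 (interval -0.36 to 1.34, edgeR adjusted p 0.688), and leaving out single libraries moved it between 0.11 without AML 1 and 0.81 without healthy 1.

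AML 1 and healthy 1 were the highest libraries for Ltbr, and levels of myeloid markers are given beside it. Summed levels of 11 macrophage markers were 108, 34.1 and 32.1 CPM in healthy and 195, 137 and 213 CPM in AML libraries. Without Csf1r, the largest of them, the other 10 summed to 36.8, 24.3 and 25.0 and then 79.5, 78.2 and 144 CPM. Among the healthy libraries, healthy 1 was the highest for Adgre1, Csf1r and Cd68. It was the lowest for C1qa, C1qb, C1qc, Cd5l, Clec4f and Mertk. Those of 7 neutrophil markers summed to 13.2, 0.603 and 6.40 and then 90.9, 9.65 and 14.95 CPM, with Ly6g at 0 in every library. With the level of Lyz2, a monocyte and macrophage gene, as a covariate the Ltbr log2 fold change was -0.05. Lyz2 was read at 459, 35.0 and 33.1 CPM in healthy and at 503, 567 and 434 CPM in AML libraries. Healthy 1 was thus the only healthy library near the AML level. The fit rests largely on it and cannot separate group from Lyz2. The part of myeloid cells in the Ltbr values was not tested further.

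Ltbr had the largest spread of the members on the log2(CPM + 1) scale, an SD of 0.463 over the 6 libraries, followed by Tnfrsf9 at 0.230. For these 2, the tested genes with the most similar profile were found by the root mean square difference of log2(CPM + 1), each gene centred on its own mean, among genes of at least 10 CPM on average. Among the genes closest to Ltbr over the 6 libraries were Scpep1 (0.118) and Rab31 (0.158), of 8345 compared. Scpep1, which encodes a serine carboxypeptidase, measured 10.8, 7.94 and 7.997 CPM in healthy and 17.3, 11.2 and 9.57 CPM in AML libraries. Closest to Tnfrsf9 were Pacrgl (0.0728), Snx12 (0.0774) and Fam26f (0.0844) of 8344 genes. With so many genes compared over 6 libraries, close profiles are a description only.

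**Figure D3:**
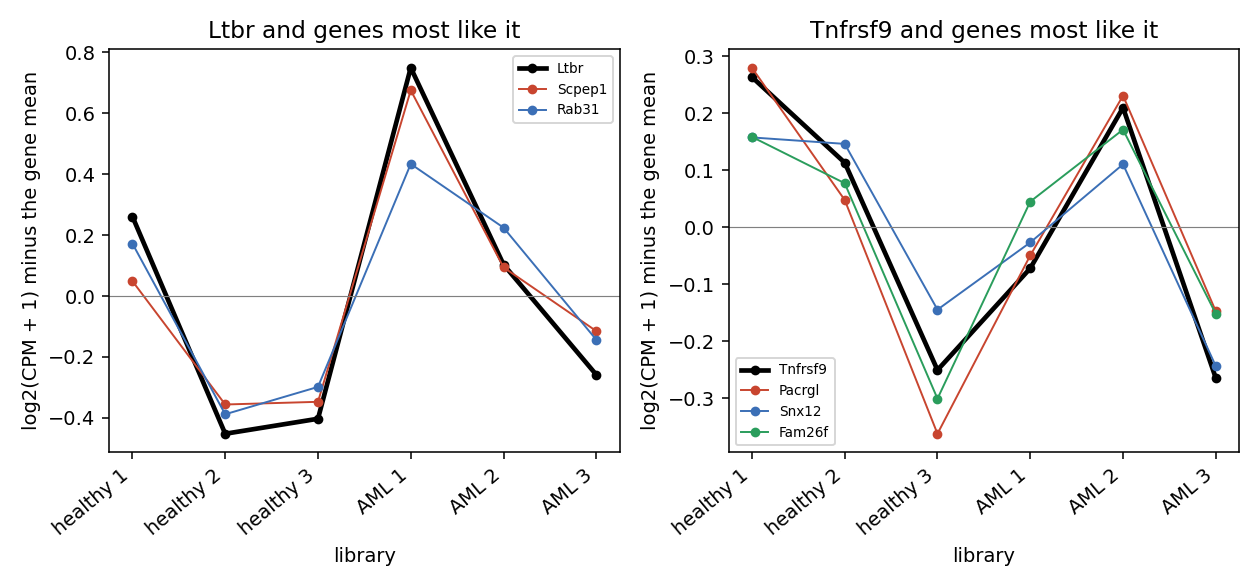
Log2(CPM + 1) minus the gene's mean in each of the 6 libraries, for Ltbr (left) and Tnfrsf9 (right) in black and genes among the closest to each in colour. Ltbr, Scpep1 and Rab31 peak in AML 1, and Tnfrsf9 is highest in healthy 1 and AML 2.

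Tnfrsf14 encodes HVEM, which binds LIGHT, BTLA and CD160. It was read at 1.44, 1.33 and 1.68 CPM in healthy and at 2.48, 2.03 and 1.39 CPM in AML libraries. AML 3 lay within the healthy range. The log2 fold change of 0.41 ± 0.35 had an interval of -0.41 to 1.23 (edgeR adjusted p 0.721) and was positive under all 16 alternatives that tested the gene, from 0.18 to 0.60.

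Without both healthy 1 and AML 1, 0 of 9 members passed, and their log2 fold changes lay between -0.19 for Cd27 and 0.43 for Ltbr. In that fit the smallest adjusted p of a member was 0.373. The authors' deposited table, made by their own comparison, lists all 9 members with log2 fold changes from -0.08 for Tnfrsf9 to 0.49 for Ltbr and adjusted p-values from 0.925 to 0.999, whereas 0.757% of its 9769 genes have an adjusted p below 0.05. T cells also carry the costimulatory members, and 1 of 8 T cell markers, Cd3g, was abundant, at 1646, 1459 and 1317 CPM in healthy and 951, 1293 and 1176 CPM in AML libraries. The other 7 markers summed to 46.3, 59.0 and 55.2 CPM in healthy and 28.8, 58.6 and 86.3 CPM in AML libraries. Their part in the member values was not tested.

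The ligands of the 9 receptors were read in the same bulk libraries. Which cells held their transcripts was not tested. Ltb, the membrane anchor of lymphotoxin, was read at 483 to 517 CPM in healthy and 492 to 551 CPM in AML libraries. Fasl, encoding the ligand of Fas, measured 353, 400 and 337 CPM in healthy and 493, 276 and 243 CPM in AML libraries. AML 1 was the highest and AML 2 and 3 the lowest of all 6. Its log2 fold change was -0.11 (edgeR adjusted p 0.901) and -0.50 without healthy 1 and AML 1, where it passed with an adjusted p of 0.0490. In that fit 444 of 12555 genes passed. It leaves out AML 1, the highest library for Fasl, which was set apart by its values in these same data. The p-value is thus not independent of that choice. Tnf was read at 25.7, 55.1 and 71.9 CPM in healthy and at 44.8, 42.3 and 44.7 CPM in AML libraries, with a log2 fold change of -0.21 (edgeR adjusted p 0.837). The healthy libraries differed among themselves by more than the groups did.

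Of the 9 ligands, 7 were tested, 5 with a positive and 2 with a negative log2 fold change, at a median of 0.53 beside 0.01 for all genes, and 0 passed in edgeR or DESeq2. That median was 0.0997 without AML 1, 0.31 without healthy 1 and AML 1, 0.29 without a filter on low counts, and -0.02 over the 4 ligands that passed a stricter filter. The largest ligand value, 1.29, was that of Tnfsf4, which lay near the floor at 0 to 0.855 CPM. Lta, the other lymphotoxin chain, was read at 3.12, 4.44 and 3.93 CPM in healthy and at 6.82, 5.42 and 7.80 CPM in AML libraries, with a log2 fold change of 0.80 ± 0.25 (edgeR p 0.0129, adjusted p 0.469). The groups did not overlap. Tnfsf14, encoding LIGHT, measured 21.1, 24.2 and 30.3 and then 27.8, 37.6 and 43.7 CPM, with AML 1 inside the healthy range and a log2 fold change of 0.53 ± 0.19 (edgeR p 0.0268, adjusted p 0.514). Tnfsf9, the ligand of 4-1BB, measured 5.67, 3.86 and 5.34 and then 6.86, 6.95 and 8.22 CPM, without overlap and with a log2 fold change of 0.57 ± 0.23 (edgeR p 0.0393, adjusted p 0.551). Thus 3 of the 7 tested ligands had an unadjusted p below 0.05, beside 8.84% of all genes.

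The ligands of GITR and CD27 were almost unread although both receptors were abundant. Tnfsf18 had 0 reads in all 6 libraries, which allows up to 0.0574 to 0.0642 CPM, and Cd70 did not exceed 0.121 CPM. Cd160, a partner of HVEM on NK cells, was read at 735 to 898 CPM in healthy and 766 to 886 CPM in AML libraries, with a log2 fold change of 0.01 (interval -0.22 to 0.23). Btla, the other partner, did not exceed 2.11 CPM in any library.

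**Figure D4:**
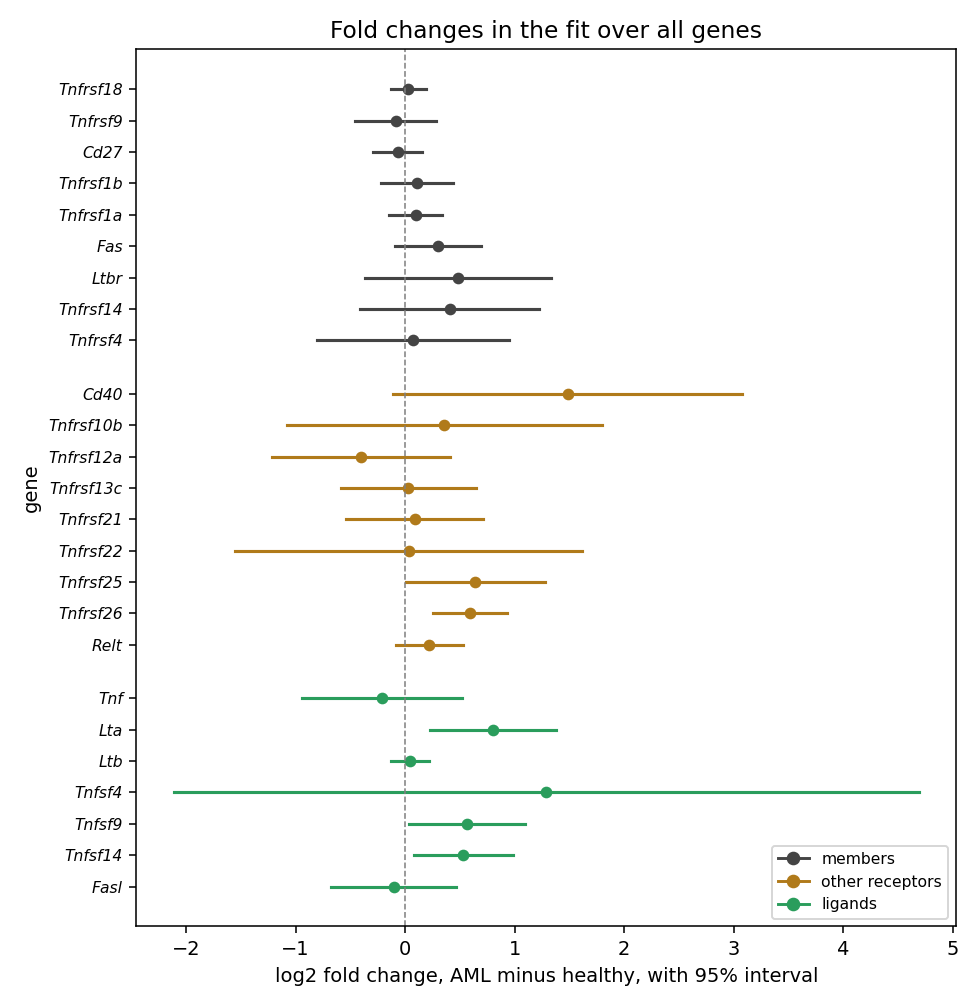
Log2 fold change, AML minus healthy, with its 95% interval from the edgeR fit over all genes, for the 9 members, the other receptors of at least 1 CPM on average, and the tested ligands. Every member interval includes 0, and the intervals of Tnfrsf25, Tnfrsf26, Lta, Tnfsf9 and Tnfsf14 lie above 0 before adjustment.

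The rest of the receptor family was listed for comparison, and 12 of 19 genes were tested, 10 with a positive and 2 with a negative log2 fold change and a median of 0.29 (0.19 without healthy 2). None passed in edgeR or DESeq2, and 2 of 12, beside 8.84% of all genes, had an unadjusted p below 0.05. Tnfrsf26 was read at 11.7, 9.77 and 12.5 CPM in healthy and at 16.4, 17.5 and 17.3 CPM in AML libraries. The groups did not overlap, and the log2 fold change was 0.59 ± 0.14 (edgeR p 0.00376, adjusted p 0.399). DESeq2 gave it an adjusted p of 0.0512. Tnfrsf26 resembles the neighbouring Tnfrsf22 and Tnfrsf23, so how the counting split reads among them is uncertain.

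Tnfrsf25, encoding the death-domain receptor DR3, measured 14.7, 10.9 and 13.5 CPM in healthy and 26.3, 12.3 and 22.2 CPM in AML libraries, with AML 2 inside the healthy range. Its log2 fold change was 0.64 ± 0.27 (edgeR p 0.0478, adjusted p 0.564), and it was 0.41 (p 0.158) without AML 1. Cd40, a receptor of B and myeloid cells, was read at 1.40, 0.342 and 0.312 CPM in healthy and at 2.72, 1.97 and 1.07 CPM in AML libraries, with healthy 1 above AML 3 (log2 fold change 1.49, edgeR adjusted p 0.569). With Lyz2 as a covariate that value was 0.34, in a fit that rests largely on healthy 1. Relt was the most abundant other receptor by CPM, with 58.6 to 73.2 in healthy and 63.2 to 83.1 in AML libraries. Tnfrsf13c, Tnfrsf21 and Tnfrsf12a ranged from 3.24 to 28.0 CPM, and Tnfrsf10b and Tnfrsf22 from 0.385 to 2.61 CPM, with overlapping groups. Without healthy 1 and AML 1, Tnfrsf11a passed with an adjusted p of 0.0250, on 0 and 1 reads in healthy 2 and 3 and 51 and 62 in AML 2 and 3. It was named after its values were seen, and healthy 1 held 66 of its reads.

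Other TNF superfamily ligands, which bind receptors outside the 9, were tested for 8 of 9 genes, 2 with a positive and 6 with a negative log2 fold change and a median of -0.22 (-0.0724 without healthy 1 and AML 1). None passed in edgeR or DESeq2, and 1 of 8, beside 8.84% of all genes, had an unadjusted p below 0.05. That gene was Tnfsf13b, encoding the B cell survival factor BAFF, at 0.405 to 0.644 CPM in healthy and 0.67 to 1.41 CPM in AML libraries (log2 fold change 1.17, edgeR p 0.0476, adjusted p 0.564). Tnfsf8 at 0.27, Tnfsf12 at -0.18 and Tnfsf13 at -0.54 had log2 fold changes with adjusted p-values of 0.691 to 0.809.

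Downstream of the receptors, all 18 adaptor genes were tested, 11 positive and 7 negative with a median log2 fold change of 0.02, and none passed in edgeR or DESeq2. Cflar, which encodes the caspase-8 inhibitor FLIP that restrains killing through Fas and TNFR1, was the only one with an unadjusted p below 0.05. That is 1 of 18, beside 8.84% of all genes. Cflar was read at 58.1, 57.0 and 63.3 CPM in healthy and at 62.3, 78.9 and 70.8 CPM in AML libraries, with AML 1 inside the healthy range. Its log2 fold change was 0.25 ± 0.10 (edgeR p 0.0439, adjusted p 0.558), and 0.16 without AML 2. Traf2, the adaptor shared by most costimulatory members, measured 114 to 129 CPM in healthy and 129 to 147 CPM in AML libraries (log2 fold change 0.16, edgeR adjusted p 0.593). Traf6 at -0.18 and Ikbkb at -0.13 were the other adaptor genes with the smallest p-values.

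NF-kB subunits and feedback genes act downstream of the receptors, and several of them separated AML 1 from AML 2 and 3. Of 15 tested, 8 were positive and 7 negative with a median log2 fold change of 0.01, and none passed with all 6 libraries in edgeR or DESeq2. Tnfaip3, encoding A20, the deubiquitinase that shuts off TNF receptor signalling to NF-kB, was read at 2343, 2913 and 2684 CPM in healthy and at 2956, 742 and 581 CPM in AML libraries. AML 1 was the highest and AML 2 and 3 by far the lowest of the 6. Its log2 fold change was -0.89 ± 0.56 (edgeR adjusted p 0.641). Without AML 1 it was -2.001 with an adjusted p of 0.00380, and without healthy 1 as well it was -2.08 with an adjusted p of 0.000152. AML 1 was set apart partly by its level of this gene, so these p-values are not independent of that choice. These fits hold only AML 2 and 3 as AML libraries, and 147 of 12764 and 444 of 12555 genes passed in them. Over the other settings the adjusted p of Tnfaip3 ran from 0.408 to 0.873.

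The feedback genes Nfkbia and Nfkbiz, and Rel, shared that split in smaller size. Nfkbia, encoding the NF-kB inhibitor I kappa B alpha, measured 477, 566 and 620.0 CPM in healthy and 696, 478 and 455 CPM in AML libraries. Nfkbiz measured 113, 99.0 and 153 and then 162, 97.8 and 93.2 CPM, and Rel 33.6, 26.1 and 29.3 and then 38.8, 20.3 and 17.0 CPM. In each of these genes AML 1 was the highest library. Rel, Nfkbia and Nfkbiz were named after their values were seen. Not all genes of the list split this way. AML 1 was the lowest AML library for Tnip2 and lay between AML 2 and AML 3 for Cyld. Bcl3, an atypical NF-kB cofactor, did not follow the split either. It measured 53.6, 65.1 and 63.6 CPM in healthy and 89.9, 88.2 and 66.8 CPM in AML libraries. Its log2 fold change was 0.43 ± 0.13 (edgeR p 0.0141, adjusted p 0.474). Without healthy 1 and AML 1 the Bcl3 value was 0.27. Rela at -0.18 and Tnip1 at 0.16 had log2 fold changes with adjusted p-values of 0.570 and 0.633. Among the receptors, AML 1 was the highest library for Tnfrsf1a, Tnfrsf1b, Fas, Ltbr and Tnfrsf14, and whether this is tied to the feedback genes was not tested.

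**Figure D5:**
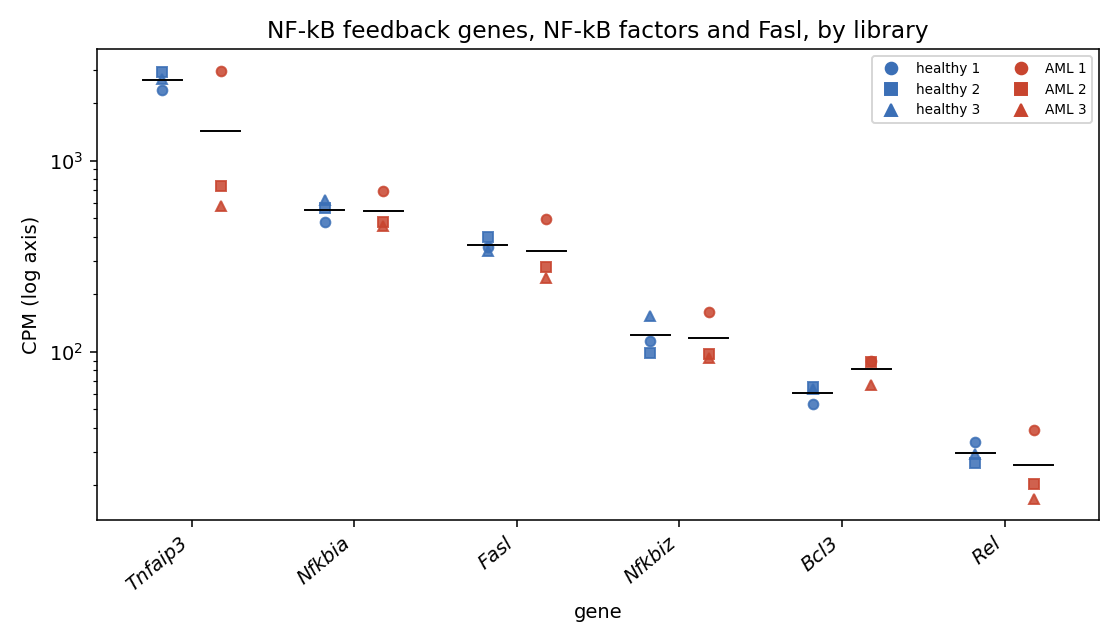
CPM (log axis) of Tnfaip3, Nfkbia, Fasl, Nfkbiz, Bcl3 and Rel in healthy 1 to 3 (blue) and AML 1 to 3 (red), with a bar at the group mean. For Tnfaip3, AML 1 at 2956 stands beside the healthy libraries and AML 2 and 3 at 742 and 581 stand apart.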

How the data were processed

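The count table holds raw read counts per gene symbol as deposited by the authors, with gene positions and lengths. Tools listed in the submitters' processing notes are edgeR 3.28.1, HTSeq 0.6.0, STAR 2.6.0 and bcl2fastq 2.18.0.12, with the builds mm10 and hg19 and no roles. How reads were assigned to genes is not given in the sources used here. A second table, of the authors' own test as deposited, holds, per the file headers, log2 fold changes, log2 mean CPM, a likelihood ratio score, p-values and adjusted p-values. Its 6 per-library columns were not used.

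AML (3) and healthy (3) libraries were compared in edgeR 4.0.16 in R 4.3.3 by its quasi-likelihood F test, with TMM, filterByExpr (minimum count 10), group only, two-sided, Benjamini-Hochberg over 12469 genes, threshold 0.05. CPM used TMM-scaled library sizes, and means are given ± SD. With 3 against 3, an exact permutation test of 1 gene cannot go below p = 0.1. The script was tested on simulated data. Alternatives changed size factors, filters, tests (DESeq2 1.42.0, limma 3.58.1), libraries and covariates.

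The members and lists were chosen with earlier results of these data known. The text names all members, their ligands and partners, other receptors of at least 1 CPM, up to 4 genes with the smallest p of each other list, and up to 3 genes most like each of the 2 most variable members, 1 of which is not reported here.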

Additional observations from a re-analysis of the deposited data

How the results depend on the processing

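Of 17 alternatives, none brought a member below an adjusted p of 0.05, and the lowest was 0.373 for Cd27 without healthy 1 and AML 1. Fas and Tnfrsf14 kept a positive log2 fold change in every alternative that tested them. The stricter filter left Tnfrsf4, Tnfrsf14 and Ltbr untested. The cause of the changes below was not tested.

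Genes past the threshold in the whole table numbered 0, and 2 with library totals only, without a filter and with the stricter filter, 143 with DESeq2, 100 with the edgeR likelihood ratio test, 74 in the authors' deposited table and 444 without both healthy 1 and AML 1. Leaving out single libraries gave 0 to 147, with 147 without AML 1, 89 without healthy 1 and 0 otherwise.

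Signs of small member fold changes (log2) turned when single libraries were left out, over ranges of -0.000145 to 0.17 for Tnfrsf1a, -0.16 to 0.00342 for Cd27, -0.23 to 0.0248 for Tnfrsf9, -0.20 to 0.24 for Tnfrsf4, -0.0108 to 0.0641 for Tnfrsf18 and -0.0416 to 0.25 for Tnfrsf1b. The same ranges were -0.53 to 0.12 for Tnf, -0.0117 to 0.0734 for Ltb, -0.48 to 0.0831 for Fasl, -0.0672 to 0.0779 for Cd160, -0.0642 to 0.90 for Tnfrsf10b, -0.20 to 0.22 for Tnfrsf13c, -0.18 to 0.34 for Tnfrsf21, -0.69 to 0.75 for Tnfrsf22 and -2.001 to -0.52 for Tnfaip3. Without both healthy 1 and AML 1 the log2 fold changes were 0.0486 for Tnfrsf9, -0.00335 for Tnfrsf1b, -0.43 for Tnfrsf10b, -0.0184 for Tnfrsf13c, -0.81 for Tnfrsf22, -0.50 for Fasl and -2.08 for Tnfaip3. With Lyz2 as a covariate they were -0.0493 for Tnfrsf1a, 0.13 for Cd27, -0.0485 for Ltbr, 0.82 for Tnf, -0.11 for Btla and -0.36 for Tnfrsf21. The Lyz2 fit rests largely on healthy 1, as described above. The list medians, chosen for this check after seeing the data, were -0.00129 for adaptors and -0.0732 for NF-kB genes without both libraries, -0.00495 and -0.0277 without healthy 1, and 0.0201 and -0.0259 without AML 1. Of the genes named with an unadjusted p below 0.05, Lta and Tnfrsf26 stayed below it whichever single library was left out, whereas Tnfrsf25, Tnfsf9, Tnfsf14, Tnfsf13b, Cflar and Bcl3 did not. Tnfrsf25 ranged from 0.41 without AML 1 to 0.90 without AML 2.

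No label pairs equal replicate numbers, and the correlations of their deviations were 0.13, -0.13 and 0.25, so the numbers were not taken as pairs. With the replicate block 0 genes passed, as without it. Tnfrsf4, Tnfrsf14 and Ltbr, with intervals such as -0.81 to 0.95 for Tnfrsf4, could hide changes that Tnfrsf18, Cd27 and Tnfrsf1a could not. How far read depth or the spread between libraries set these widths was not tested. The interval of the scarce Fas, -0.09 to 0.69, was about as wide as that of the abundant Tnfrsf9, -0.46 to 0.29.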
